A study of Mus musculus with 10 samples.

Results

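Gata6, Timd4, Lyve1, Icam2, Vsig4 and Folr2 are genes used to recognise the resident macrophages of the mouse peritoneal cavity. They were taken by name from the deposited table, which lists 32830 genes, and all 6 were present with reads in each of the 10 libraries. The libraries are RNA-seq of tumour tissue from a mouse ovarian cancer model in animals labelled wild type. Tumours had received an inhibitor of the cell-cycle kinases CDK4 and CDK6 together with an antibody to the checkpoint receptor PD-1 (combination, n = 3), the inhibitor alone (CDK4/6i, n = 3), the antibody alone (PD-1 antibody, n = 2) or phosphate-buffered saline (PBS, n = 2). The series asks whether the inhibitor improves the response to the antibody by way of tertiary lymphoid structures, the lymphoid aggregates that can form inside tumours. The labels used here give no tumour line, dose, age or time, and do not say whether each library came from a separate animal. All p-values therefore measure the spread between these libraries, which may be partly technical.

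Large resident macrophages of the peritoneal fluid renew themselves locally and take up dying cells and microbes. Their identity depends on the transcription factor GATA6, which is induced by retinoic acid supplied in part by mesothelial and stromal cells that express Wt1. In mouse ovarian cancer that grows in the abdomen, such macrophages can be found in ascites and on the omentum. None of the 6 transcripts belongs to these cells alone. GATA6 is also made by mesothelial, ovarian and gut-derived cells, LYVE-1 by lymphatic endothelium, ICAM-2 by blood endothelium, and VSIG4 and TIM-4 by Kupffer cells, the macrophages of the liver. In bulk tumour RNA, fewer cells of a type and less RNA per cell cannot be told apart.

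Timd4 and Vsig4 were the members with the lowest levels and the members that were highest in the same pair of libraries, so the 250 bases before each start site are shown for both. They are RefSeq sequences on GRCm38.p6, read 5′ to 3′ on the gene's own strand, from chrX:96293439-96293688 on the minus strand for Vsig4 and chr11:46810549-46810798 on the plus strand for Timd4. Capitals mark matches to GAGGAA, a form of the site bound by the macrophage factor PU.1, on either strand. The shorter GGAA, which both windows hold, was not marked on its own.
Vsig4 promoter: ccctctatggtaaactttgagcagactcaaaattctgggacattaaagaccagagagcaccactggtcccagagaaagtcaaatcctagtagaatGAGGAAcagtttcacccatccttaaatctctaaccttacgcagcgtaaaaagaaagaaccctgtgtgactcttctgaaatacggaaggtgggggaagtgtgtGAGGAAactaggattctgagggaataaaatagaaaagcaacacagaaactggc
Timd4 promoter: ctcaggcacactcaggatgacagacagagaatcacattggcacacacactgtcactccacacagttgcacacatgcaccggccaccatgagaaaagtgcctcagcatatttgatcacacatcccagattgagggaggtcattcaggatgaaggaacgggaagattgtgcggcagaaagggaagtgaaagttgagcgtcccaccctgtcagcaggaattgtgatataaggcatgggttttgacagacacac
The Vsig4 window held 2 matches to GAGGAA and the Timd4 window held 0. Neither window held GATAA, a form of the site bound by GATA factors, on either strand. The shorter GATA, which the Timd4 window holds, was not counted. Among 32851 promoter windows of the same length, 23.25% held GAGGAA and 22.58% held GATAA. These matches describe letters and show no binding. The RefSeq table held entries for 3 members, and both windows of the third, Folr2, held 0 matches to GAGGAA or GATAA. Other forms of the PU.1 and GATA sites were not counted.

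**Figure D1:**
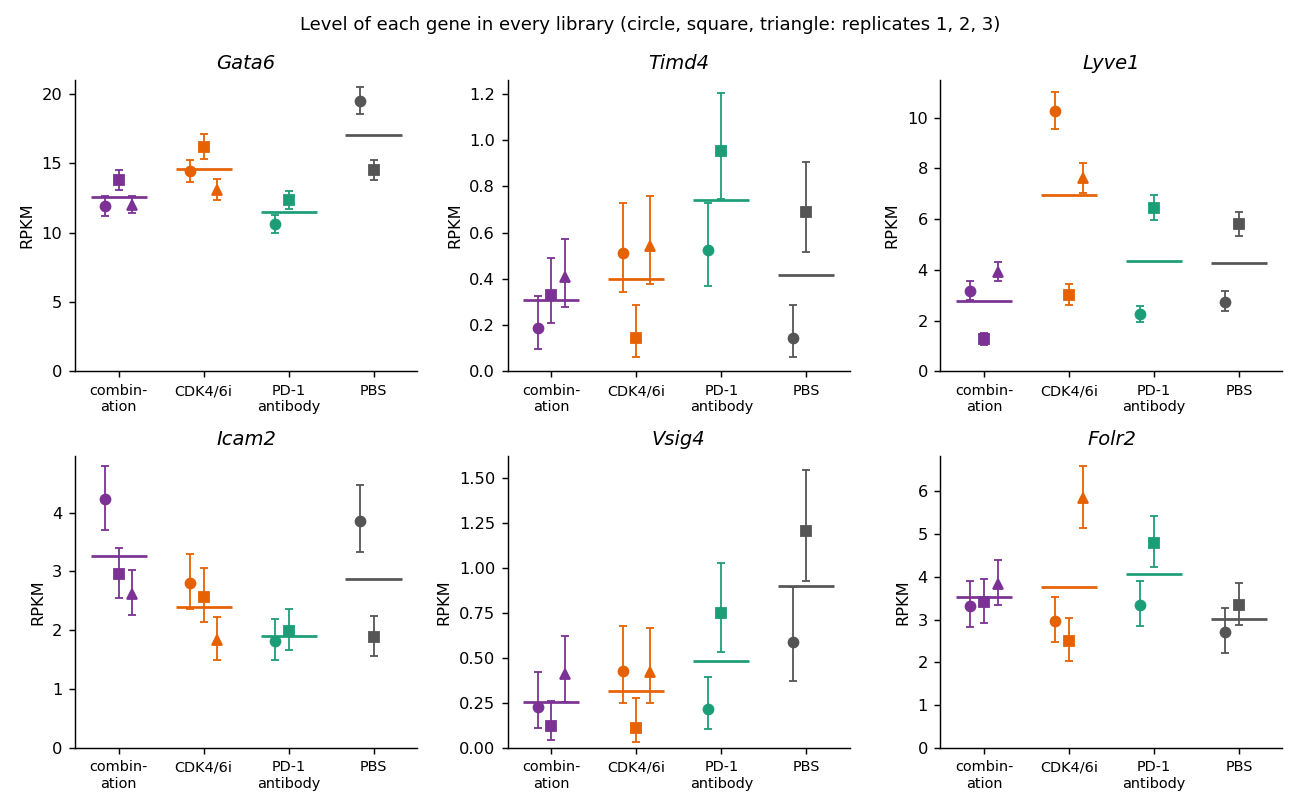
RPKM (reads per unit of gene length and of sequencing depth) of the 6 genes in each library, by group, on a linear axis that starts at 0 in each panel. Points are libraries, vertical bars are exact 95% Poisson intervals of the read count, and horizontal lines are group means. Gata6 lay between 10.6 and 19.5 RPKM in all 10 libraries, while Timd4 and Vsig4 reached at most 0.955 and 1.20 RPKM.

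The 6 genes lay on 3 very different levels. On the RPKM scale, which is already per gene length, Gata6 averaged 13.8 ± 2.55 RPKM over the 10 libraries (SD). Lyve1, Folr2 and Icam2 averaged 4.65 ± 2.81, 3.61 ± 1.01 and 2.65 ± 0.849 RPKM. Vsig4 and Timd4 averaged 0.447 ± 0.335 and 0.444 ± 0.258 RPKM. Of all genes in the table, 87.7% had a lower mean than Gata6, and 44.8% had a lower mean than Timd4. The genes also differed in how much they varied. The highest library exceeded the lowest by 1.84 times for Gata6, 2.33 times for Icam2 and 2.35 times for Folr2, but by 6.53 times for Timd4, 8.12 times for Lyve1 and 11.3 times for Vsig4. Read counts ran from 1069 to 1607 for Gata6, and from 4 to 62 for Vsig4, so counting error alone is large for the least abundant genes.

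The libraries themselves were uneven. They held 25132208 to 36260856 reads. Skeletal muscle genes took 10.1% of the reads in combination replicate 1 and 9.99% and 8.88% in CDK4/6i replicates 1 and 2, and pancreas genes took 6.68% and 2.70% in PD-1 antibody replicates 1 and 2. Liver transcripts were present in PD-1 antibody replicate 2 and PBS replicate 2, in which Alb, the gene of serum albumin, reached 163 and 1395 RPKM, against at most 0.816 RPKM in the other 8 libraries. PBS replicate 1 had the most fat transcripts, with the fat hormone gene Adipoq at 111 RPKM. General macrophage genes were present throughout. Csf1r, the receptor for the macrophage growth factor CSF1, had 9.44, 28.7 and 29.6 RPKM in combination, 6.19, 6.17 and 18.5 in CDK4/6i, 23.3 and 25.0 in PD-1 antibody and 10.7 and 19.0 in PBS libraries.

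Gata6 encodes the transcription factor that sets the identity of large peritoneal macrophages (18:11052510-11085635, plus strand, GRCm38). It had 11.9, 13.8 and 12.02 RPKM in combination, 14.4, 16.2 and 13.1 in CDK4/6i, 10.6 and 12.3 in PD-1 antibody, and 19.5 and 14.5 in PBS libraries. Every library that had received the antibody lay below both PBS libraries, and the ranges of CDK4/6i and PBS overlapped. Group means were 12.6 ± 1.04 RPKM in combination (SD, n = 3), 14.6 ± 1.54 in CDK4/6i (n = 3), 11.5 ± 1.20 in PD-1 antibody (n = 2) and 17.0 ± 3.54 in PBS libraries (n = 2). The log2 fold change against PBS was -0.41 (SE 0.18) for the combination, -0.54 (SE 0.20) for the PD-1 antibody and -0.21 (SE 0.18) for CDK4/6i. None passed limma's test over all genes (adjusted p = 1, 0.557 and 0.845), and the CDK4/6i value changed sign without PBS replicate 1 (0.0017) or with median-ratio scaling of the libraries (0.033). Averaged over both levels of the inhibitor, the antibody gave -0.37 (SE 0.13, adjusted p = 0.428), the lowest adjusted p of any member.

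Beside general macrophage genes, Gata6 was above some and below others. Adgre1, which encodes the macrophage antigen F4/80, had 3.9997, 11.9 and 12.8 RPKM in combination, 1.28, 1.71 and 7.08 in CDK4/6i, 10.05 and 9.39 in PD-1 antibody, and 2.98 and 8.02 in PBS libraries. Gata6 exceeded Adgre1 in 9 of 10 libraries, by up to 11.3 times, the exception being combination replicate 3 (0.941 times), and was lower than Csf1r in 6 of 10 (median ratio 0.736). Set against Gata4, a related factor of ovarian and mesothelial cells, Gata6 was lower in 9 of 10 libraries (median ratio 0.749). Across the 10 libraries, Pearson's r of Gata6 with the mean log2 level of 12 general macrophage genes was -0.46 (permutation p = 0.177, adjusted 0.376, Spearman's rho -0.50, permutation p = 0.144), and -0.57 without PD-1 antibody replicate 1 and PBS replicate 1. With mesothelial genes it was 0.06 (permutation p = 0.862, adjusted 0.977, rho 0.14, permutation p = 0.706), and -0.11 without the same libraries. With epithelial genes it was -0.41 (permutation p = 0.218, adjusted 0.413, rho -0.62, permutation p = 0.0605), and -0.54 without the same libraries. Pancreas transcripts also varied between the groups. The 10 pancreas genes summed to 43.5, 2013 and 7681 RPKM in combination, 58.3, 60.3 and 788 in CDK4/6i, 53861 and 21888 in PD-1 antibody, and 53.4 and 41.5 in PBS libraries. The libraries fall into separate clusters of 5 on this scale, so no correlation is given, and the part of pancreas RNA in the Gata6 levels was not tested. Gata6 had 11.9 (combination replicate 1) to 19.5 RPKM (PBS replicate 1) in the 5 libraries with the fewest pancreas transcripts. In the other 5 it had 10.6 (PD-1 antibody replicate 1) to 13.8 RPKM (combination replicate 2). Timd4 and Vsig4, by contrast, were below Adgre1 in 10 of 10 libraries. Gata6 was thus far above the level of these members, and which cells carried it was not tested.

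Timd4 encodes TIM-4, the receptor with which resident macrophages bind phosphatidylserine on dying cells (11:46810800-46844332, plus strand). It had 0.187, 0.329 and 0.406 RPKM in combination, 0.511, 0.146 and 0.544 in CDK4/6i, 0.526 and 0.955 in PD-1 antibody, and 0.146 and 0.690 in PBS libraries. All combination libraries lay below both PD-1 antibody libraries, and the other comparisons overlapped. The 2 PBS libraries differed beyond counting error, with 8 reads (0.0632 to 0.289 RPKM, exact 95% Poisson interval) in replicate 1 and 52 reads (0.515 to 0.905 RPKM) in replicate 2. The combination against the PD-1 antibody gave a log2 fold change of -0.61 (SE 0.35, adjusted p = 0.924). Without PD-1 antibody replicate 2 and PBS replicate 2, the libraries with liver transcripts, it was -0.36. Group means were 0.307 ± 0.111 RPKM in combination (SD, n = 3) and 0.400 ± 0.221 in CDK4/6i libraries (n = 3). They were 0.740 ± 0.303 in PD-1 antibody (n = 2) and 0.418 ± 0.384 in PBS libraries (n = 2). Against PBS the combination gave -0.13 (SE 0.35), which turned to 0.31 without PBS replicate 2. Its relative Havcr2, the gene of the inhibitory receptor TIM-3, was higher than Timd4 in 10 of 10 libraries.

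Vsig4 encodes a complement receptor that binds fragments of C3 and marks resident macrophages, Kupffer cells among them (X:96247203-96293438, minus strand). It had 0.228, 0.120 and 0.409 RPKM in combination, 0.424, 0.107 and 0.421 in CDK4/6i, 0.214 and 0.748 in PD-1 antibody, and 0.590 and 1.20 in PBS libraries. Both PBS libraries lay above every combination and every CDK4/6i library, and PD-1 antibody libraries fell on either side of PBS replicate 1. Group means were 0.252 ± 0.146 RPKM in combination (SD, n = 3), 0.317 ± 0.182 in CDK4/6i (n = 3), 0.481 ± 0.378 in PD-1 antibody (n = 2) and 0.897 ± 0.435 in PBS libraries (n = 2). The log2 fold change was -0.88 (SE 0.36, adjusted p = 1) for the combination against PBS and -0.76 (SE 0.36, adjusted p = 0.844) for CDK4/6i against PBS. On this log2(RPKM + 0.5) scale the change of such a low gene is understated. With voom weights on the recovered reads it was -1.90 and -1.61 (adjusted p = 1 and 0.836).

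The highest Vsig4 levels were in the libraries with liver transcripts. Clec4f, a lectin gene that defines Kupffer cells, had 0.260 RPKM in PD-1 antibody replicate 2 and 2.85 RPKM in PBS replicate 2, and 0 reads in the other 8 libraries. The summed level of 9 hepatocyte genes ranged from 4.96 to 11.6 RPKM in combination, 7.94 to 15.3 in CDK4/6i, 8.86 to 426 in PD-1 antibody and 258 to 3489 in PBS libraries. Among them, 258 RPKM in PBS replicate 1 was mostly Cyp2e1 (252 RPKM), a gene that fat also expresses. The 8 Kupffer cell genes summed to 16.5 to 19.1 RPKM in combination, 12.4 to 68.4 in CDK4/6i, 22.03 to 35.4 in PD-1 antibody and 30.04 to 38.1 in PBS libraries. The sum of 68.4 was that of CDK4/6i replicate 3, in which Marco alone had 55.5 RPKM and Clec4f had 0 reads. The sum of 38.1 was that of PBS replicate 1, in which Clec4f also had 0 reads. Its largest parts were Id3 (16.6 RPKM), Marco (12.3 RPKM) and Nr1h3 (6.66 RPKM). Marco is also on the list of other peritoneal resident genes below. The part of liver RNA in the Vsig4 and Timd4 levels was not tested. Without the 2 libraries with liver transcripts, Vsig4 did not reach 0.5 RPKM in 2 libraries and could not be fitted. The values left were 0.590 RPKM in PBS replicate 1, 0.214 RPKM in PD-1 antibody replicate 1 and 0.107 to 0.424 RPKM in the combination and CDK4/6i libraries. Within these 8 libraries, r of Vsig4 with the hepatocyte genes was 0.77 (exact permutation p = 0.0118, adjusted 0.117), and r of Timd4 with them was -0.12 (exact permutation p = 0.840, adjusted 0.934). PBS replicate 1 was the highest of the 8 in Vsig4 and in the mean log2 level of the hepatocyte genes (0.90, against at most 0.21). Its hepatocyte sum was mostly Cyp2e1, and the r of Vsig4 without this library was not tested.

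**Figure D2:**
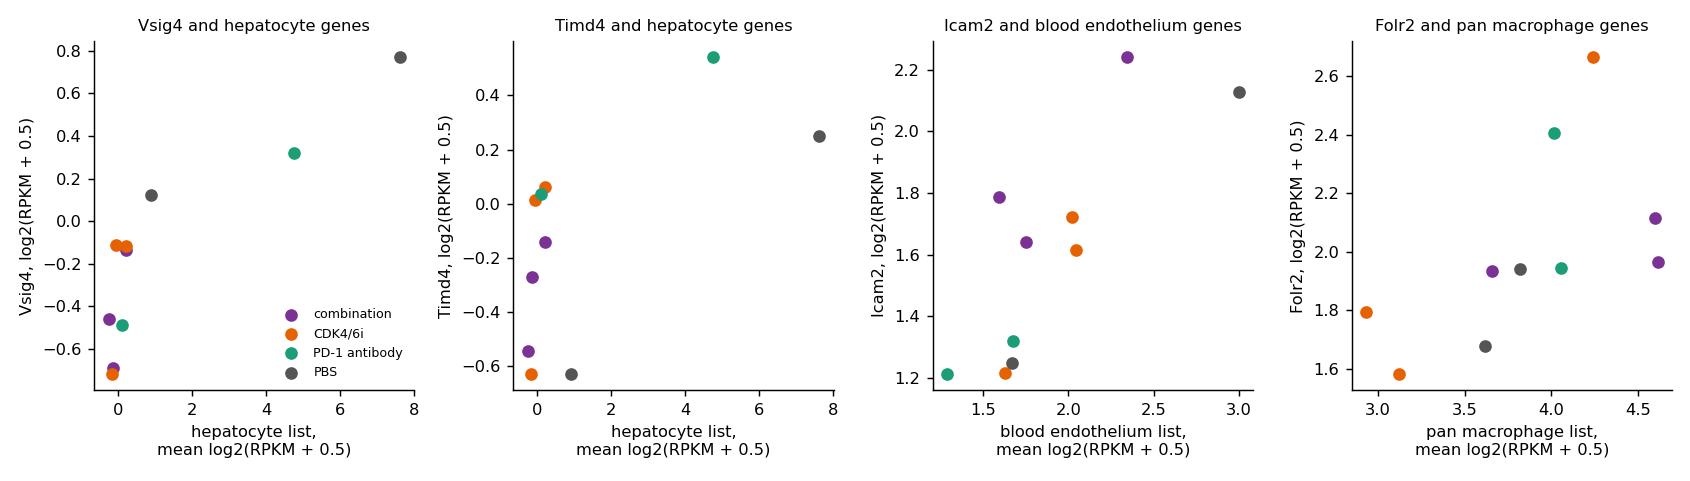
log2(RPKM + 0.5) of Vsig4 and Timd4 against the mean log2 level of the hepatocyte genes, of Icam2 against blood endothelial genes and of Folr2 against general macrophage genes. Each point is a library, marked by group. PD-1 antibody replicate 2 and PBS replicate 2 stand apart on the hepatocyte axis, at 4.75 and 7.62 against at most 0.90 in the other libraries.

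Lyve1 encodes a receptor for hyaluronan, found on lymphatic endothelium and on some tissue macrophages (7:110850607-110863239, minus strand). It had 3.17, 1.26 and 3.93 RPKM in combination, 10.3, 3.01 and 7.61 in CDK4/6i, 2.26 and 6.44 in PD-1 antibody, and 2.75 and 5.81 in PBS libraries. Libraries of the same treatment lay far apart in every group, and every comparison overlapped. The means were 2.79 ± 1.37 RPKM in combination (SD, n = 3), 6.96 ± 3.67 in CDK4/6i (n = 3), 4.35 ± 2.95 in PD-1 antibody (n = 2) and 4.28 ± 2.16 in PBS libraries (n = 2). The combination against CDK4/6i gave -1.14 (SE 0.56, adjusted p = 0.626). CDK4/6i against PBS gave 0.57 (SE 0.62, adjusted p = 0.854), and 0.095 to 1.05 when single libraries were left out. Prox1, the factor that defines lymphatic endothelium, lay between 0.0190 and 0.392 RPKM in the 10 libraries. The r of Lyve1 with 8 lymphatic genes was 0.54 (permutation p = 0.112, adjusted 0.271, rho 0.64, permutation p = 0.0552), and 0.53 without combination replicate 2 and CDK4/6i replicate 1.

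Icam2 encodes an adhesion molecule that binds the leukocyte integrin LFA-1 and serves, in flow cytometry of the cavity, as a surface marker of large macrophages (11:106377656-106388075, minus strand). It had 4.22, 2.95 and 2.62 RPKM in combination, 2.80, 2.56 and 1.82 in CDK4/6i, 1.82 and 1.99 in PD-1 antibody, and 3.87 and 1.88 in PBS libraries. All combination libraries exceeded both PD-1 antibody libraries, and the other ranges overlapped. The means were 3.27 ± 0.846 RPKM in combination (SD, n = 3), 2.40 ± 0.508 in CDK4/6i (n = 3), 1.91 ± 0.126 in PD-1 antibody (n = 2) and 2.87 ± 1.41 in PBS libraries (n = 2). The log2 fold change of the combination over the PD-1 antibody was 0.62 (SE 0.30, adjusted p = 0.893). Combination replicate 1 and PBS replicate 1 were the highest for Icam2 and also for Cdh5, the cadherin that defines endothelium, at 11.7 and 23.7 RPKM against 3.82 to 9.74 RPKM in the other libraries. Over all 10 libraries, r of Icam2 with 12 blood endothelial genes was 0.81 (permutation p = 0.00276, adjusted 0.0235), and rho was 0.70 (permutation p = 0.0304, adjusted 0.129). Without those 2 libraries r was 0.58 (exact permutation p = 0.160), so the relation rests on them. Icam1, a relative with the same integrin ligand, was higher than Icam2 in 10 of 10 libraries.

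Folr2 encodes folate receptor beta, a marker of resident macrophages in many tissues (7:101839988-101857194, minus strand). It had 3.32, 3.41 and 3.84 RPKM in combination, 2.97, 2.49 and 5.84 in CDK4/6i, 3.35 and 4.80 in PD-1 antibody, and 2.70 and 3.34 in PBS libraries. Both PD-1 antibody libraries lay above PBS (the closest pair was 3.35 and 3.34 RPKM), and the other comparisons overlapped. The means were 3.52 ± 0.275 RPKM in combination (SD, n = 3), 3.77 ± 1.81 in CDK4/6i (n = 3), 4.07 ± 1.03 in PD-1 antibody (n = 2) and 3.02 ± 0.450 in PBS libraries (n = 2), and the 3 combination libraries were the closest together. The PD-1 antibody against PBS gave a log2 fold change of 0.36 (SE 0.35, adjusted p = 0.802). Of the 6 genes, Folr2 had the highest r with the general macrophage genes, 0.58 (permutation p = 0.0746, adjusted 0.211), with rho 0.82 (permutation p = 0.00604, adjusted 0.0513), and r was 0.78 without CDK4/6i replicate 3 and PD-1 antibody replicate 2. In combination replicate 1 and CDK4/6i replicates 1 and 2, the libraries rich in muscle transcripts, the macrophage list level was 3.66, 2.93 and 3.12. Folr2 had 3.32, 2.97 and 2.49 RPKM in them. The part of muscle RNA in this relation was not tested. Folr1, which encodes the folate receptor of epithelial cells, was higher than Folr2 in 10 of 10 libraries.

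**Figure D3:**
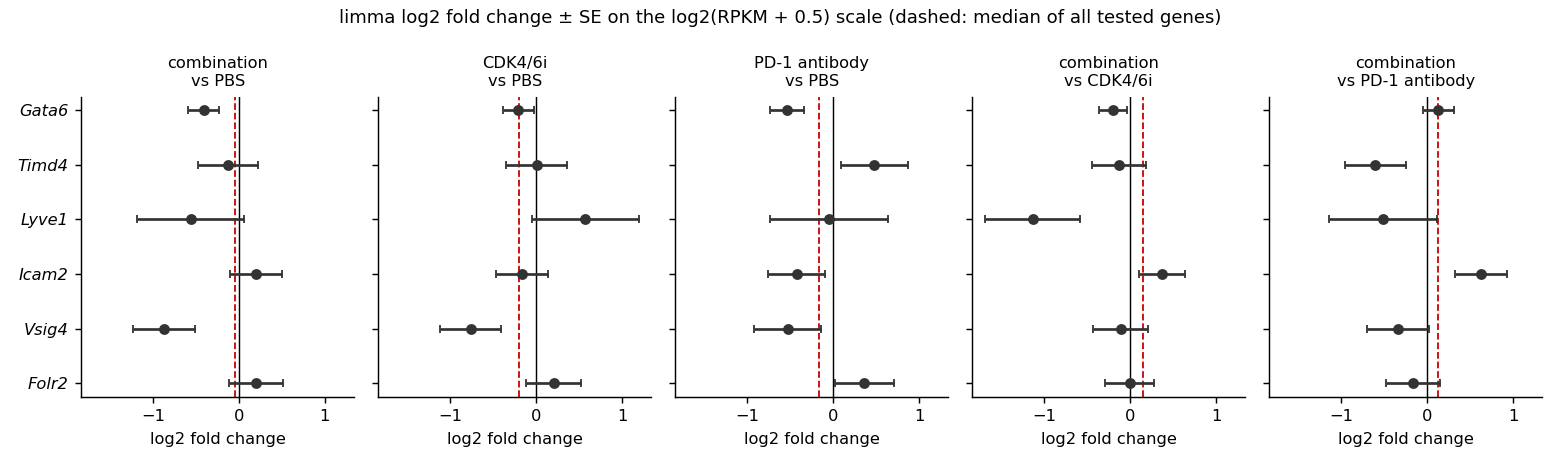
log2 fold change of the 6 genes in 5 comparisons from limma on log2(RPKM + 0.5), with bars of 1 standard error. The dashed line is the median of all 19368 genes tested in that comparison. No member passed an adjusted p of 0.05, and the widest bars are those of Lyve1.

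All 6 genes passed the filter of 0.5 RPKM in at least 2 libraries. In each of the 5 comparisons between groups, in the inhibitor and antibody effects averaged over each other, and in their interaction, 0 of 6 passed an adjusted p of 0.05, as did 0% of the 19368 genes tested. limma-voom on the recovered reads also called 0 of 6 in each. The count over all genes moved more than that of the members. It reached 118 for CDK4/6i against PBS and 90 for the combination against PBS without PBS replicate 1, 108 for the averaged antibody effect without combination replicate 1, and 131 for the combination against the PD-1 antibody with the macrophage level as a covariate, with 0 members called each time. By limma's unadjusted p at 0.05, 1 member was called for the combination against PBS (Vsig4, against 3.54% of all genes), 1 for the PD-1 antibody against PBS (Gata6, against 8.65%) and 1 for the averaged antibody effect (Gata6, against 10.2%). None was called for CDK4/6i against PBS (5.35% of all genes), the combination against the PD-1 antibody (5.55%) or CDK4/6i (8.03%), the averaged inhibitor effect (4.91%) or the interaction (5.62%). The 3 comparisons with PBS share the same 2 PBS libraries.

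In at least 1 of the 5 comparisons, the groups did not overlap for Gata6, Timd4, Icam2, Vsig4 and Folr2, while those of Lyve1 overlapped in each. Against PBS, 2 of 6 members were lower in every combination library (11.5% of all genes), 1 of 6 in every CDK4/6i library (17.3%), and 1 of 6 in every PD-1 antibody library (34.8%), while 1 of 6 was higher in every PD-1 antibody library (8.78%). No member was higher in every combination library (0 of 6, 4.45% of all genes) or every CDK4/6i library (0 of 6, 1.71%). Against the PD-1 antibody, the combination was lower throughout for 1 of 6 (5.1% of all genes) and higher throughout for 1 of 6 (21.5%). Against CDK4/6i, the combination was higher throughout for 0 of 6 (7.84%) and lower throughout for 0 of 6 (3.01%). The median log2 fold change of the 6 genes was -0.27 for the combination against PBS, beside -0.05 for all genes, -0.24 beside -0.17 for the PD-1 antibody and -0.08 beside -0.20 for CDK4/6i. Median-ratio scaling moved the all-gene medians by 0.05, 0.15 and 0.20 in those comparisons.

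Each gene had its own order of libraries. Of the 15 pairs of members, 0 had a correlation that passed after adjustment. By Pearson's r the strongest relation, between Timd4 and Icam2, was negative, with r = -0.77 (permutation p = 0.0101, adjusted 0.152) and rho = -0.67 (permutation p = 0.0400, adjusted 0.266). Without CDK4/6i replicate 2 and PD-1 antibody replicate 2, r was -0.92, and without CDK4/6i replicate 2 alone this pair passed (r = -0.86, exact permutation p = 0.00292, adjusted 0.0438). Timd4 and Folr2, the strongest pair by rho, had r = 0.65 (permutation p = 0.0427, adjusted 0.279) and rho = 0.70 (permutation p = 0.0311, adjusted 0.266), and r was 0.40 without the same 2 libraries. By rank, PD-1 antibody replicate 2 was among the highest 3 libraries for 4 members, CDK4/6i replicate 2 was the lowest for 3 members, and PD-1 antibody replicate 1 was among the lowest 3 for 4 members.

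The interaction asks whether the combination departs from the sum of its agents' separate effects on the log2 scale. It was 0.79 (SE 0.43) for Icam2, 0.42 (SE 0.51) for Vsig4 and 0.33 (SE 0.26) for Gata6, and -1.09 (SE 0.88) for Lyve1, -0.61 (SE 0.50) for Timd4 and -0.37 (SE 0.45) for Folr2, beside a median of 0.33 over all genes. The lowest adjusted p among these was 0.777, that of Icam2. Median-ratio scaling moved the all-gene median of the interaction by -0.31 and put Gata6 at -0.024. Averaged over the antibody, the inhibitor gave -0.55 (SE 0.25, adjusted p = 0.966) for Vsig4, the member farthest from 0 in that comparison.

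**Figure D4:**
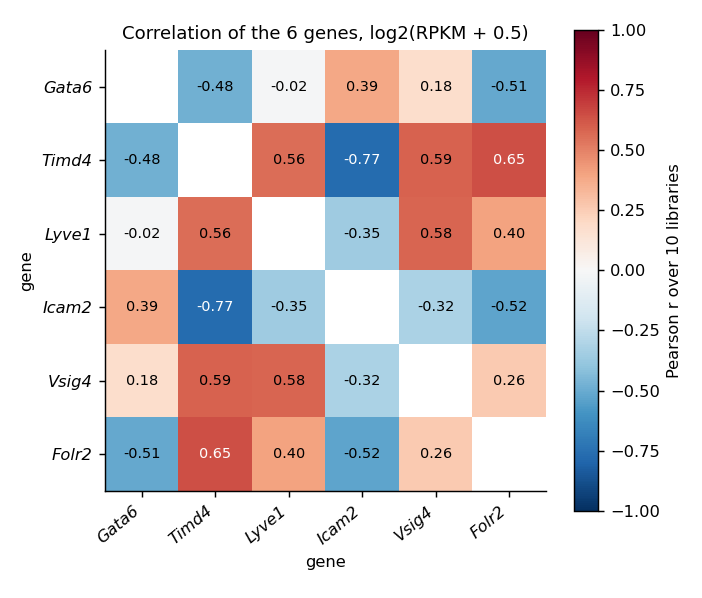
Pearson's r between the 6 genes over the 10 libraries, on log2(RPKM + 0.5). The colour runs from negative to positive r, and the cell farthest from 0 is Timd4 with Icam2 at -0.77, while Timd4 with Folr2 is at 0.65.

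The genes most like each member, by Pearson's r over the 10 libraries among 13065 named protein-coding genes, were different for each. They are the highest of many values from few libraries, and selection alone can give a high r. No test was run on them, and whether they share cells or roles with the members was not tested. For Gata6 they were Dxo (r = 0.98), Preb (0.98) and Cdk2 (0.97), of which Cdk2 encodes a cell-cycle kinase. For Timd4 they were Erp44 (0.96) and Hyou1 (0.91), both chaperones of the endoplasmic reticulum, and Zfp9 (0.89). For Lyve1 they were Loxl2 (0.85), a collagen-crosslinking enzyme, Hhipl1 (0.84) and Egln3 (0.84), an oxygen-sensing hydroxylase. For Icam2 they were Marcks (0.94), Scarf1 (0.94), a scavenger receptor of endothelium, and Zkscan16 (0.92). For Vsig4 they were Orm1 (0.94), an acute-phase plasma protein made by the liver, Wfdc21 (0.93) and H2-Q10 (0.93), a secreted class I molecule of liver. For Folr2 they were Emilin2 (0.96), an extracellular matrix protein, Lepr (0.94), the leptin receptor, and Parm1 (0.93).

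Other genes of the peritoneal resident programme were examined as a list of 16, of which 15 were tested and 0 passed in any comparison. For the combination against PBS, 1 of the 15 was above 0 and 14 were below, with a median log2 fold change of -0.38 beside -0.05 for all genes. The lowest p values in that comparison were those of Apoc1, Fcna, Cd5l and Tgfb2. Apoc1, an apolipoprotein gene that liver also expresses, had 1.09, 1.12 and 2.48 RPKM in combination and 30.3 and 105.6 RPKM in PBS libraries. Fcna, the gene of the complement lectin ficolin A, had 1.89, 1.75 and 3.21 RPKM in combination, 5.30, 2.74 and 7.81 in CDK4/6i, 3.42 and 6.83 in PD-1 antibody, and 9.06 and 7.18 RPKM in PBS libraries. Cd5l, a macrophage-secreted regulator of lipid use that is also on the Kupffer cell list, had 1.11, 0.818 and 1.87 RPKM in combination and 1.80 and 5.99 RPKM in PBS libraries. F10 and F5 of this list had 22.4 and 5.70 RPKM in PBS replicate 2, a library with liver transcripts, and 0.626 and 0.0536 RPKM in PBS replicate 1. Others, Fcna and Tgfb2 among them, were higher in PBS replicate 1. The part of liver RNA in the levels of this list was not tested. For the PD-1 antibody against PBS, 3 of the 15 were above 0 and 12 below (median -0.67, beside -0.17 for all genes). For CDK4/6i against PBS, 6 were above and 9 below (median -0.03, beside -0.20 for all genes). Marco, a scavenger receptor gene, reached 55.5 RPKM in CDK4/6i replicate 3, with 15.996 RPKM in the next highest library, PD-1 antibody replicate 2.

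The general macrophage list was split differently. For the combination against PBS, 10 of 12 genes were above 0 and 2 below, and 0 passed. Their median was 0.81, beside -0.05 for all genes. For the PD-1 antibody against PBS, 10 were above and 2 below (median 0.39, beside -0.17 for all genes). For CDK4/6i against PBS, 4 were above and 8 below (median -0.37, beside -0.20 for all genes). For the combination against CDK4/6i the split was again 10 and 2, with a median of 1.14, beside 0.15 for all genes. The muscle-rich libraries were unevenly spread over these groups, being combination replicate 1 and CDK4/6i replicates 1 and 2. Their macrophage list level was 3.66, 2.93 and 3.12. In the other libraries of these groups it was at least 4.24, the level of CDK4/6i replicate 3. The part of muscle RNA in this split was not tested. Of 20 genes of other tissue-resident macrophages, 19 were tested, and 6 were above 0 and 13 below for the combination against PBS (median -0.36). Whether these lists differ from each other was not tested. Of a list of retinoid and niche genes, 2 of 15 were above 0 and 13 below in that comparison (median -0.24), and 0 passed. The lowest p values were those of Rbp4, Cyp26b1, Aldh1a1 and Cyp26a1. Rbp4, the plasma carrier of retinol that liver and fat secrete, had 1.30, 0.183 and 0.723 RPKM in combination and 11.6 and 46.7 RPKM in PBS libraries. Levels within this list ranged widely. Wt1 and Aldh1a1, which makes retinoic acid, were at 33.1 to 53.3 and 304 to 504 RPKM over the 10 libraries, and Cyp26a1 and Cyp26b1, which break retinoic acid down, were at 0.157 to 1.01 and 0.884 to 2.19 RPKM. The retinoic acid receptor gene Rarb, itself a gene of large peritoneal macrophages, was at 1.37 to 3.39 RPKM.

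Ligands and partners of the 6 proteins, with related genes of the same pathways such as C3ar1, formed a list of 16 genes. Of these, 15 were tested. For the combination against PBS, 9 were above 0 and 6 below, and 0 passed. Their median was 0.24, beside -0.05 for all genes. The lowest p values were those of Itgax, C3ar1, Has1 and Itgb2. Itgb2, the integrin chain shared by LFA-1 and the other leukocyte integrins that bind ICAM-2 and complement, had 18.4, 48.7 and 53.5 RPKM in combination and 13.9 and 21.9 RPKM in PBS libraries. C3ar1, the receptor for the complement fragment C3a, had 2.83, 5.65 and 5.32 RPKM in combination and 2.31 and 2.32 RPKM in PBS libraries. Has1, a synthase of the LYVE-1 ligand hyaluronan, had 1.12, 0.285 and 0.488 RPKM in combination and 3.08 and 0.607 RPKM in PBS libraries. For CDK4/6i against PBS, 4 of the 15 were above 0 and 11 below (median -0.20, beside -0.20 for all genes). For the PD-1 antibody against PBS, 8 were above and 7 below (median 0.06, beside -0.17 for all genes).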

How the data were processed

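The deposited table gives RPKM (reads per unit of gene length and of sequencing depth), computed by the authors, for 32830 genes in 10 libraries. Per the labels' protocols, RNA was extracted with TRIzol and sequenced as stranded paired-end mRNA libraries; 2 kits are named. Per the submitters' processing notes the build was GRCm38 (mm10). No aligner, counting program, annotation release or strand setting is given in the sources used here. RPKM multiplied by length gave whole reads for 100% of values (tolerance 1e-06), so totals were recovered. Poisson intervals cover counting error only. Replicate pairs were compared and differed by more than sampling noise. Groups follow the treatment label, and sample titles for the combination, because the treatment text of its replicates 2 and 3 numbers the antibody differently.

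limma 3.58.1 (R 4.3.3; trend and robust moderation, 4 group means, 6 residual degrees of freedom) was run on log2(RPKM + 0.5) for 19368 genes with at least 0.5 RPKM in at least 2 samples, adjusted by Benjamini-Hochberg per contrast (8 contrasts, threshold 0.05). The test was checked on simulated reads with changes planted only in genes of higher mean level than Timd4 and Vsig4. The simulation left out the muscle, pancreas and liver differences between libraries, so it does not give the power of the test here. Correlations used 100000 permutations, exact below 10 libraries, with Benjamini-Hochberg adjustment over 15 pairs and over 17 member and list relations. A relation with the hepatocyte list is given within 8 libraries, since 2 libraries stand apart on it. None is given with the pancreas or muscle lists, on which the libraries also cluster.

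The members, gene lists and tests were chosen with earlier results of these data known. Named genes were the 6 members, up to 4 genes of a list with the lowest p, the 3 genes most like each member, and defining markers. Marco, F10, F5, Gata4, Wt1, Aldh1a1, Rarb, Adipoq, Cyp2e1 and the family relatives were named after their values were seen.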

Additional observations from a re-analysis of the deposited data

How the results depend on the processing

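The number of members called was 0 in all 165 alternative counts, which covered pseudocounts of 0.1 and 1, no filter, a filter at 1 RPKM (at which Timd4 and Vsig4 were not fitted), median-ratio scaling, limma-voom, only the groups compared, a replicate block, the macrophage level as a covariate, and leaving out libraries. Of 963 alternative fits of single members, 904 kept the sign and 59 reversed it, all without passing the test (lowest adjusted p 0.169). Over all genes, calls numbered 0 in each comparison, up to 118 when single libraries were left out and up to 131 under the other alternatives. The cause of each reversal was not tested. Reversed log2 fold changes are listed by setting.

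With a pseudocount of 1, Timd4 was at -0.0044 for CDK4/6i against PBS. With median-ratio scaling, CDK4/6i against PBS gave 0.033 for Gata6 and 0.038 for Icam2, the PD-1 antibody against PBS gave 0.11 for Lyve1, and Gata6 was at 0.021 for the averaged inhibitor effect and -0.024 for the interaction. With limma-voom, Lyve1 was at -0.0076 for the averaged inhibitor effect. With the replicate block, 0 members were called, and Timd4 was at -0.10 for CDK4/6i against PBS, with Gata6 at 0.011, Lyve1 at -0.17 and Folr2 at -0.17 for the averaged inhibitor effect. Whether replicate numbers pair the samples was not settled. Deviations of same-numbered libraries from their group means correlated at -0.45 to 0.62 over 13 pairs (median 0.018). Differently numbered libraries gave -0.67 to 0.58 over 24 pairs (median -0.12). In groups of 2 libraries the deviations mirror each other, so this check cannot exclude pairing. With the macrophage level as a covariate, Folr2 was at -0.10 for the combination against PBS, and Timd4, Icam2 and Folr2 were at -0.019, 0.26 and -0.13 for the averaged antibody effect. Without the muscle-rich libraries, Icam2 was at -0.011 for the averaged inhibitor effect, and Icam2 and Folr2 were at 0.038 and -0.13 for the averaged antibody effect. Without the 2 libraries with liver transcripts, an alternative chosen after seeing the data, the combination gave 0.31 for Timd4 and -0.24 for Icam2 against PBS and 0.15 for Lyve1 and 0.062 for Folr2 against the PD-1 antibody, and Timd4 was at 0.045 for the averaged inhibitor effect.

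Leaving out single libraries reversed the following. CDK4/6i against PBS ranged from -0.41 to 0.0017 for Gata6, -0.44 to 0.45 for Timd4, -0.61 to 0.27 for Icam2 and -0.12 to 0.42 for Folr2. The PD-1 antibody against PBS ranged from -0.71 to 0.61 for Lyve1 and -0.86 to 0.016 for Icam2. The combination against PBS ranged from -0.57 to 0.31 for Timd4 and -0.24 to 0.64 for Icam2. The combination against the PD-1 antibody ranged from -1.18 to 0.15 for Lyve1, -0.75 to 0.058 for Vsig4 and -0.40 to 0.062 for Folr2. The combination against CDK4/6i ranged from -0.31 to 0.019 for Vsig4 and -0.22 to 0.32 for Folr2. The averaged inhibitor effect ranged from -0.14 to 0.064 for Gata6, -0.30 to 0.36 for Lyve1 and -0.15 to 0.13 for Folr2. The averaged antibody effect ranged from -0.048 to 0.39 for Timd4 and -0.24 to 0.19 for Icam2.

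Correlated pairs of members numbered 0, and 0 to 1 when single libraries were left out. Over all 10 libraries, 2 relations of members with lists passed, those of Icam2 with blood endothelial genes and of Vsig4 with hepatocyte genes. The 2 libraries with liver transcripts stand apart on the hepatocyte list, so the Vsig4 relation is read only without them. The number that passed was 1 to 2 when single libraries were left out and 0 without the 2 libraries with liver transcripts. It ran from 0 to 3 over all alternatives. Depth limits Timd4 and Vsig4, with as few as 8 and 4 reads in a library.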
